A study of Rattus norvegicus with 18 samples.

Results

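The RGS genes encode regulators of G-protein signalling. The 9 described here, Rgs2, Rgs3, Rgs4, Rgs5, Rgs10, Rgs12, Rgs14, Rgs16 and Rgs19, were chosen by symbol, and all 9 are among the 17312 gene rows of the deposited expression table. Heart muscle cells of the ventricle from day 2 Sprague-Dawley rat pups (neonatal rat ventricular myocytes) were grown in primary culture. After plating in serum and 24 h without it, they received the REV-ERB agonist SR9009 or vehicle for 24 h and then phenylephrine (PE), an agonist of α1-adrenergic receptors that makes these cells grow. RNA was sequenced at 0, 4 and 48 h of PE in each arm, 3 libraries in each of 6 groups and 18 in all: SR9009 with 0, 4 or 48 h of PE, and vehicle with 0, 4 or 48 h of PE. No group was kept for 4 or 48 h without PE, so PE and time in culture cannot be told apart. The design asks how the PE response differs with and without the REV-ERB agonist.

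RGS proteins bind the active, GTP-loaded α subunit of a heterotrimeric G protein and speed the hydrolysis of its GTP, which ends the signal of the receptor. In heart muscle, α1-adrenergic, angiotensin and endothelin receptors signal through Gq, the route of hypertrophic growth, while muscarinic and adenosine receptors signal through Gi and Go to slow the beat. Rgs2 prefers Gq, the other small RGS proteins of its subfamily (Rgs3, Rgs4, Rgs5 and Rgs16) act on both Gi and Gq, Rgs10, Rgs12 and Rgs14 act on Gi, with a second Gi-binding motif in Rgs12 and Rgs14, and Rgs19, also known as GAIP, binds Gi.

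Of the 9 members, 4 lie on chromosome 13 in the deposited rn6 coordinates. Rgs5 (chr13:87966820-88002831) and Rgs4 (chr13:88054817-88061108) are neighbours, with 51985 bases between their loci. Rgs16 lies at chr13:71180078-71183522, 40404 bases from Rgs8. The locus given for Rgs2, chr13:60568146-60849061, spans 280916 bases against a RefSeq gene length of 2604 bases and overlaps Uchl5, so reads of that neighbour may have entered the Rgs2 value. Uchl5 had 10.7, 11.5 and 9.82 FPKM at 0, 4 and 48 h with SR9009 and 10.4, 10.1 and 17.2 FPKM with vehicle. Its bounds overlapped over the 3 times of the SR9009 arm, and with vehicle its highest value was at 48 h. The part of such reads in the Rgs2 values was not tested. The other 5 members are spread over chromosomes 1 (Rgs10), 3 (Rgs19), 5 (Rgs3), 14 (Rgs12) and 17 (Rgs14). Of all 18 rows named Rgs and a number, 9 lie on chromosome 13.

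The 250 bases before the start are printed for the 3 members that met the size rule of the comparisons that follow, Rgs2, Rgs4 and Rgs5, and for Rgs16, the member with the letters AGGTCA, the core to which REV-ERB and other nuclear receptors bind. They are from RefSeq, build GRCr8, in the direction of the gene, 5′ to 3′. Capitals mark a match on either strand to TGACG, the core of the cAMP response element, to the AP-1 letters TGANTCA, to AGGTCA, to the E-box CACGTG or to a CArG box. The windows are chr13:58352667-58352916 (Rgs2, minus strand), chr13:84475885-84476134 (Rgs4, minus strand), chr13:84380827-84381076 (Rgs5, plus strand) and chr13:68437870-68438119 (Rgs16, plus strand).
Rgs2: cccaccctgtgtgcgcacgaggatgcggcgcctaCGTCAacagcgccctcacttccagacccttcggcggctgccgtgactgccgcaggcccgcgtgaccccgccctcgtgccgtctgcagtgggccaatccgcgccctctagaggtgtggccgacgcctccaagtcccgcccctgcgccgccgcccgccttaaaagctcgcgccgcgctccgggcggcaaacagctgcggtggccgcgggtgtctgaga
Rgs4: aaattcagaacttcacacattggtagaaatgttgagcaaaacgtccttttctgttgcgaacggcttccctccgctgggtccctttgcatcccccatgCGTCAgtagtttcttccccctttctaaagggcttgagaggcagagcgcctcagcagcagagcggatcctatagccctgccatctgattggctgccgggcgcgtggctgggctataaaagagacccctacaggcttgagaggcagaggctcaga
Rgs5: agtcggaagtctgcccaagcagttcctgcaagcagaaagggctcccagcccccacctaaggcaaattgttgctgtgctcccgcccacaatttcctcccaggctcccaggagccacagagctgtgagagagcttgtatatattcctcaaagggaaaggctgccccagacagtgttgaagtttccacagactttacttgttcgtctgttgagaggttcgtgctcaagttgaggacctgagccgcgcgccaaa
Rgs16: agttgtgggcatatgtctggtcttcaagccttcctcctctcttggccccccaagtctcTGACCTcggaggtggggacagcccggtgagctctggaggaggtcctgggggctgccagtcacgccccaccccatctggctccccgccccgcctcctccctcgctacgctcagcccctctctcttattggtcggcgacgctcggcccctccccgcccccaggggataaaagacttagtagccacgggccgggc
TGACG stands at -216 to -212 from the start of Rgs2 and at -153 to -149 from that of Rgs4, each on the opposite strand. It is in the windows of 3 of the 9 members, Rgs3 being the other one, and in 18.2% of all 33469 promoters of the same length. AGGTCA stands at -192 to -187 of Rgs16, on the opposite strand, in 1 of 9 members and 14.1% of promoters. The AP-1 letters were in the window of Rgs12 only (6.34% of promoters), the E-box in that of Rgs19 only (5.59%) and the CArG box in none of the 9 (1.50%). No overlap between motifs occurs in the members' windows, since none holds more than 1 match.

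The levels are FPKM, fragments scaled to transcript length and to the number of mapped fragments, which can be compared between genes. The authors combined the 3 libraries of a group into 1 value with a lower and an upper bound, so no spread between libraries, SD or p-value can be given. The confidence level of the bounds is not given in the sources used here, and the depth is unknown. Rgs2 had the highest level of the 9 in each of the 6 groups, followed by Rgs19. In SR9009 cells at 0 h the bounds of these genes overlapped, 17.0 to 30.2 FPKM for Rgs2 and 14.1 to 20.1 FPKM for Rgs19. In the other 5 groups they did not. Rgs10 and Rgs5 came next except with vehicle at 48 h of PE, where Rgs4 stood above Rgs10 with overlapping bounds. Apart from Rgs4 with vehicle at 48 h, Rgs3, Rgs4 and Rgs12 lay between 2.63 and 8.13 FPKM, and most neighbours among them overlapped. Rgs16 and Rgs14 were last in each group. Rgs14 averaged 0.496 FPKM over the 6 groups and was left out of the counts below, which need a mean of at least 1 FPKM, while Rgs16, the member nearest above that limit, averaged 2.14 FPKM.

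**Figure D1:**
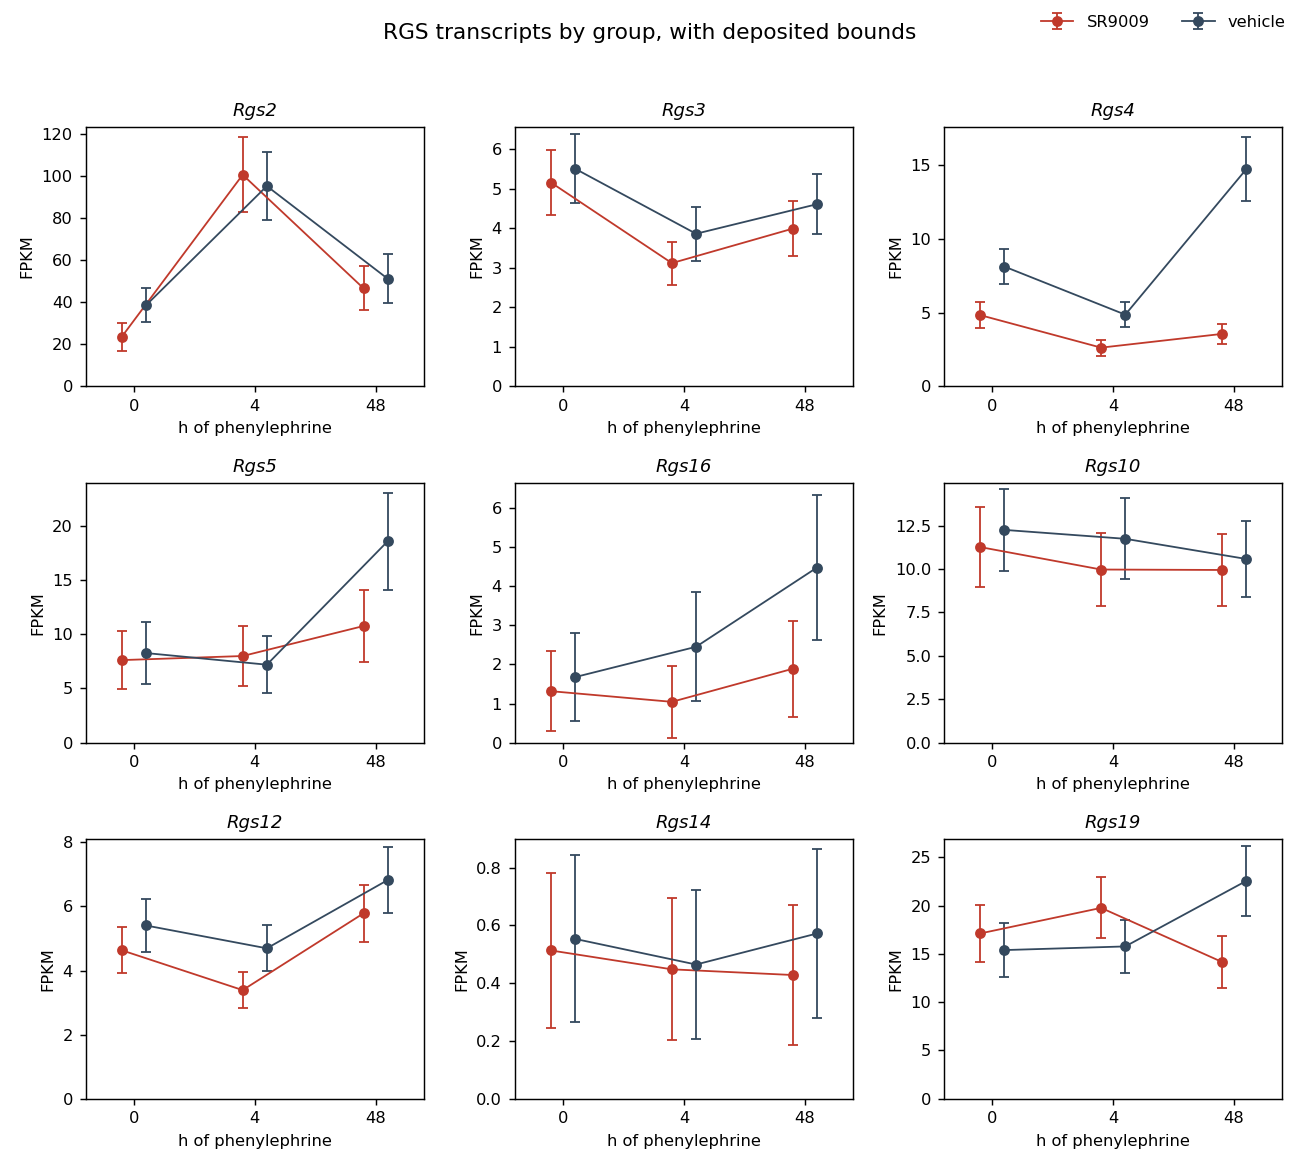
FPKM of the 9 RGS genes at 0, 4 and 48 h of PE (evenly spaced on the x axis) in SR9009 cells (red) and vehicle cells (blue); points are the authors' group values over 3 libraries and bars their deposited bounds. Rgs2 reached 101 and 95.3 FPKM at 4 h in SR9009 and vehicle cells, while Rgs4 reached 14.7 FPKM with vehicle at 48 h of PE and 3.56 FPKM with SR9009.

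A difference was counted when log2(FPKM + 1) differed by at least 1 and the bounds of the groups did not overlap, so that the widest range of the difference the bounds allow excludes 0. This is a rule of size, not a test. A difference on this scale understates the change of low genes. The background is the share of all genes averaging 1 FPKM or more that met the same rule in the same comparison.

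After 4 h of PE, Rgs2 was the member that stood out. In SR9009 cells it had 23.6, 101 and 46.6 FPKM at 0, 4 and 48 h, and in vehicle cells 38.6, 95.3 and 51.2 FPKM. The 4 h value was the highest of each arm, and its bounds (82.8 to 119 FPKM with SR9009, 79.0 to 112 FPKM with vehicle) lay clear of those at both other times. At 4 h against 0 h the log2 difference was 2.05 in the SR9009 arm (range 1.43 to 2.73), a ratio of 4.26, and 1.28 in the vehicle arm (range 0.75 to 1.84), a ratio of 2.47. The 4 h levels of the arms overlapped and it was at 0 h that the SR9009 level was the lower of the pair, by a log2 difference of -0.68 whose range nearly reached 0 (-1.40 to -0.02). The bounds do not separate the PE differences of the arms: the PE difference with SR9009 minus that with vehicle was 0.76, with a range of -0.41 to 1.98. In bulk RNA, a change in how many cells of a type are present and a change in RNA per cell cannot be told apart, here or below.

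Rgs2 was the only 1 of 8 members counted at 4 h, higher in each arm. Of all genes, 1.83% were higher in the SR9009 arm and 4.48% met the rule in either direction; in the vehicle arm the shares were 2.75% and 5.08%. By 48 h its level was lower again than at 4 h, by a log2 difference of -1.09 with SR9009 (range -1.69 to -0.53), which met the rule, and of -0.88 with vehicle (range -1.48 to -0.32), which did not. At 48 h against 0 h it was 0.95 with SR9009 (range 0.25 to 1.69), just under the 2-fold limit, and 0.40 with vehicle (range -0.23 to 1.02). Rgs2 made up 31.0%, 67.6% and 48.0% of the summed FPKM of the 9 members at 0, 4 and 48 h with SR9009, and 40.3%, 65.1% and 38.2% with vehicle. At 4 h Rgs2 thus held about the same share of the summed FPKM of these 9 members in both arms.

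Rgs3 and Rgs4 had their lowest levels at 4 h in each arm. Rgs3 had 5.15, 3.11 and 3.99 FPKM at 0, 4 and 48 h in SR9009 cells and 5.50, 3.86 and 4.60 FPKM in vehicle cells. Its 4 h against 0 h differences, -0.58 with SR9009 (range -0.97 to -0.19) and -0.42 with vehicle (range -0.82 to -0.02), had bounds that did not overlap but were under 2-fold. For Rgs4 the same differences were -0.69 with SR9009 (range -1.12 to -0.26) and -0.64 with vehicle (range -1.04 to -0.24). So at 4 h Rgs2 stood above its 0 h level, and Rgs3 and Rgs4 below theirs, in both arms.

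Rgs4 was the member with the widest gap between the arms at 48 h. It had 4.83, 2.63 and 3.56 FPKM at 0, 4 and 48 h in SR9009 cells and 8.13, 4.87 and 14.7 FPKM in vehicle cells. With SR9009 no time after 0 h exceeded the 0 h level; with vehicle the 48 h value was the highest of all 6 groups, its bounds (12.6 to 16.9 FPKM) clear of the other 5. In the vehicle arm Rgs4 at 48 h was above its 4 h level by a log2 difference of 1.42 (range 1.01 to 1.84), a ratio of 3.03, and above its 0 h level by 0.78 (range 0.39 to 1.17), under 2-fold. In the SR9009 arm the 48 h against 0 h difference was -0.36 (range -0.79 to 0.08). At 48 h of PE, SR9009 cells were lower than vehicle cells by a log2 difference of -1.79 (range -2.21 to -1.37), a ratio of 0.242 with a range of 0.170 to 0.338.

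Rgs4 was lower with SR9009 before PE was added as well. The SR9009 against vehicle difference was -0.65 at 0 h (range -1.05 to -0.24) and -0.69 at 4 h (range -1.12 to -0.27), both under 2-fold with bounds that did not overlap. The PE difference at 48 h against 0 h with SR9009 minus that with vehicle was -1.14 (range -1.97 to -0.31), so the gap at 48 h was wider than the gap at 0 h beyond what the bounds allow. Rgs4 was the only 1 of 8 members counted in this difference of differences, on the lower side, against 5.34% of all genes lower and 9.05% in either direction. None of 8 was counted at 4 h, against 0.423% in either direction. Both sets of differences share the 0 h groups.

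Rgs5, the neighbour of Rgs4 and a marker of pericytes and vascular smooth muscle, had 7.62, 7.99 and 10.8 FPKM at 0, 4 and 48 h in SR9009 cells and 8.27, 7.19 and 18.6 FPKM in vehicle cells. Its vehicle level at 48 h was above that at 0 h by a log2 difference of 1.08 (range 0.32 to 1.91), a ratio of 2.25, and above that at 4 h by 1.26 (range 0.48 to 2.12). In the SR9009 arm the same differences were 0.45 (range -0.42 to 1.35) and 0.39 (range -0.47 to 1.27). At 48 h SR9009 cells stood below vehicle cells by -0.74 (range -1.50 to -0.01), and the difference of the PE differences, -0.63, had a range of -2.33 to 1.03, so that the arms were not shown to differ in their PE difference. Its bounds reached 24.0% to 36.8% of the value on each side, wider than the median of 14.8% to 15.0% over all genes at 5 FPKM or more. With the groups scaled to equal sums of FPKM the 48 h against 0 h difference in the vehicle arm was 0.88 and no longer counted.

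Rgs16, like Rgs4 and Rgs5, had its highest value in vehicle cells at 48 h. It stood at 1.32, 1.04 and 1.89 FPKM at 0, 4 and 48 h with SR9009 and 1.68, 2.45 and 4.48 FPKM with vehicle. The vehicle value at 48 h was 1.03 above that at 0 h on the log2(FPKM + 1) scale, past 2-fold, but its range, -0.07 to 2.25, included 0. SR9009 against vehicle at 48 h gave -0.92 (range -2.14 to 0.18). The bounds of Rgs16 lay 41.5% to 88.7% of the value away, and at this precision neither difference was detectable.

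Counted over the members, 1 of 8 was higher at 48 h than at 0 h in the vehicle arm (Rgs5), against 4.87% of all genes higher and 8.82% in either direction. None of 8 was counted in the SR9009 arm, against 1.26% higher and 2.42% in either direction. At 48 h against 4 h, 2 of 8 were higher in the vehicle arm (Rgs4 and Rgs5), against 3.85% of all genes higher and 6.22% in either direction. In the SR9009 arm 1 of 8 was lower (Rgs2), against 2.00% lower and 4.49% in either direction. SR9009 against vehicle, 1 of 8 was lower at 48 h (Rgs4), against 4.55% of all genes lower and 6.89% in either direction. None of 8 was counted at 0 h, against 1.07% in either direction, or at 4 h, against 1.55%. With 8 genes, 1 gene is already more than the background share, and no excess can be read from such counts. The median difference of the 8 members at 48 h, SR9009 against vehicle, was -0.42, with a median of -0.04 and quartiles of -0.31 and 0.22 over all genes; without the filter, with all 9 members, it was -0.21. All 8 were below 0 in that comparison, Rgs10 excepted when groups were scaled to equal sums. The ranges of Rgs2, Rgs3, Rgs10, Rgs12 and Rgs16 included 0. The share of all genes below 0 was not computed, so the shared direction is no result about the members.

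**Figure D2:**
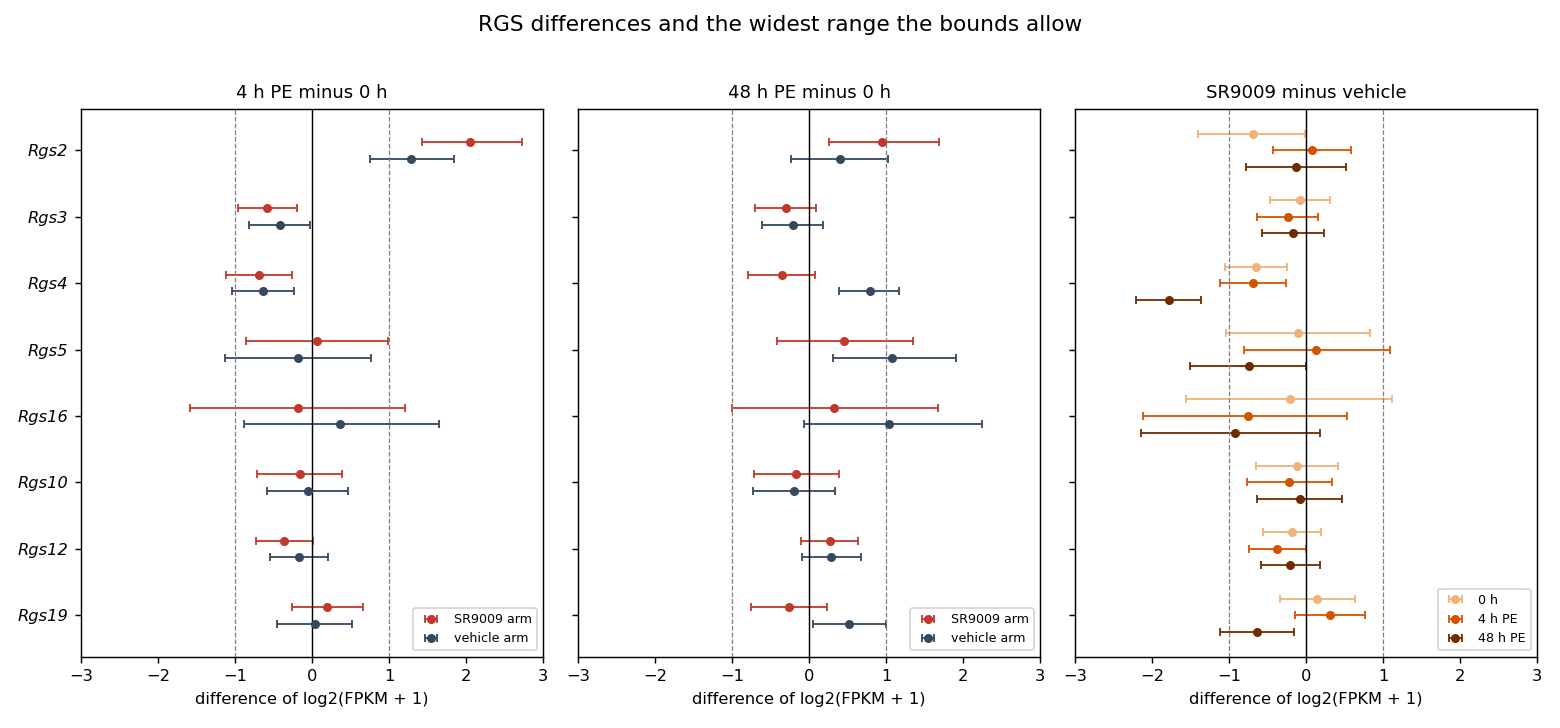
Differences of log2(FPKM + 1) for the 8 RGS genes averaging 1 FPKM or more: 4 h PE minus 0 h and 48 h PE minus 0 h in the SR9009 arm (red) and the vehicle arm (blue), and SR9009 minus vehicle at 0, 4 and 48 h. Points are differences of group values, bars the widest range the bounds allow, and dashed lines mark 2-fold; Rgs2 is past the line at 4 h in both arms, and Rgs4 at 48 h in SR9009 minus vehicle, at -1.79.

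Rgs10, Rgs12 and Rgs14 met the rule in none of the comparisons. Rgs10, which acts on Gi, had 11.3, 9.97 and 9.94 FPKM at 0, 4 and 48 h with SR9009 and 12.3, 11.7 and 10.6 FPKM with vehicle. Its highest group was 1.23 times its lowest and the bounds of all groups overlapped. Rgs12 had 4.63, 3.39 and 5.78 FPKM with SR9009 and 5.40, 4.69 and 6.82 FPKM with vehicle. Like Rgs3 and Rgs4 it was lowest at 4 h in each arm, and its 48 h level exceeded the 4 h level by 0.63 with SR9009 (range 0.25 to 1.00) and by 0.46 with vehicle (range 0.08 to 0.83). Rgs14 was at 0.513, 0.448 and 0.428 FPKM with SR9009 and 0.553, 0.464 and 0.572 FPKM with vehicle, with bounds of 51.3% to 56.4% on each side that overlapped throughout.

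Rgs19 differed from these at 48 h. It had 17.1, 19.8 and 14.2 FPKM at 0, 4 and 48 h with SR9009 and 15.4, 15.8 and 22.5 FPKM with vehicle. At 48 h SR9009 cells were below vehicle cells by -0.63 (range -1.12 to -0.16), and vehicle cells at 48 h were above those at 0 h by 0.52 (range 0.06 to 1.00), both under 2-fold. The difference of the PE differences was -0.78 (range -1.75 to 0.18).

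Summed over the 9 members, the levels were 76.0, 149 and 97.2 FPKM at 0, 4 and 48 h with SR9009 and 95.7, 146 and 134 FPKM with vehicle. The sums were alike at 4 h, when Rgs2 made up most of them. At 48 h the vehicle sum stood higher, and Rgs4 held 3.66% of it with SR9009 and 11.0% with vehicle.

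The genes whose profile over the 6 groups was most like that of a counted member were found by the root mean square difference of log2(FPKM + 1), each profile centred on its own mean, among 8201 genes at a mean of 5 FPKM or more. For Rgs2 they were Phlda1 (0.161), Crem (0.227), which encodes a cAMP-responsive transcription factor, and Lmo7 (0.231). Phlda1 had 18.5, 56.7 and 29.4 FPKM at 0, 4 and 48 h with SR9009 and 21.8, 56.8 and 31.1 FPKM with vehicle. It too was highest at 4 h in each arm. For Rgs4 they were Plk1 (0.151), a mitotic kinase, Prss35 (0.189) and Racgap1 (0.189), a GTPase-activating protein of cytokinesis. Plk1 had 6.97, 3.84 and 4.79 FPKM with SR9009 and 8.21, 6.77 and 17.4 FPKM with vehicle, again with the maximum in vehicle cells at 48 h. For Rgs5 they were Fam213a (0.0896), Thnsl1 (0.105) and Rras (0.106), a small GTPase of the Ras family. Rras had 30.7, 31.1 and 35.5 FPKM with SR9009 and 34.7, 30.6 and 71.8 FPKM with vehicle. These are nearest profiles over 6 points, a description with no test.

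**Figure D3:**
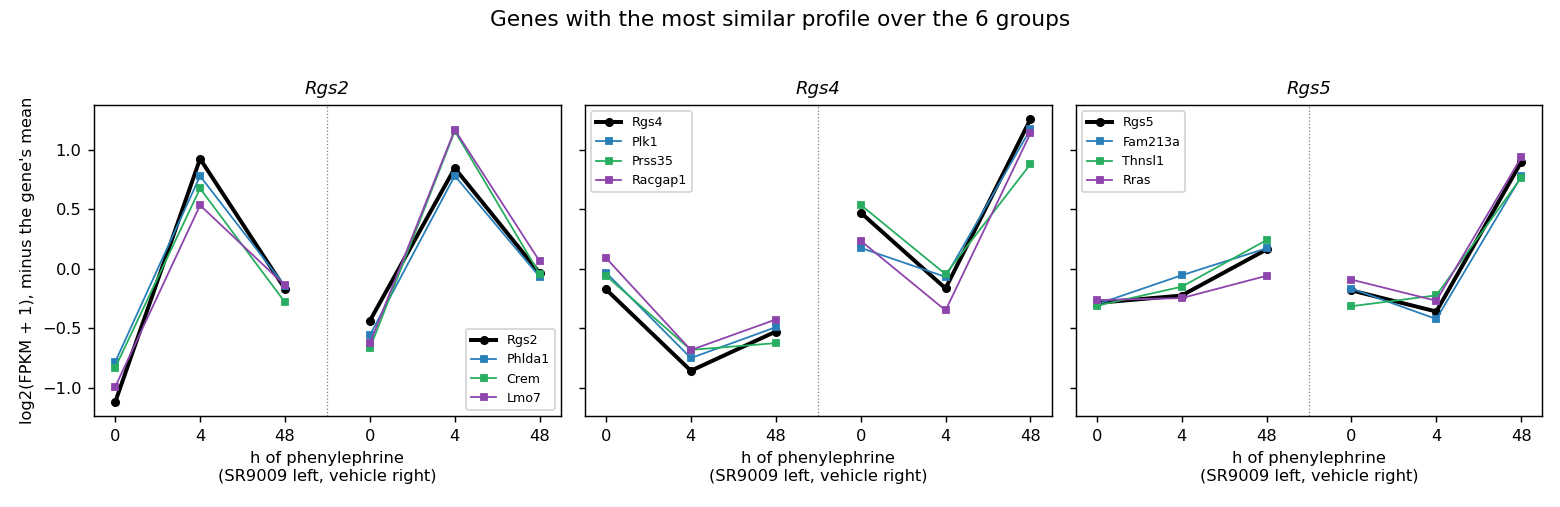
Profiles of Rgs2, Rgs4 and Rgs5 (black) and, for each, the 3 genes with the nearest profile (colours): log2(FPKM + 1) minus the gene's own mean over the 6 groups, at 0, 4 and 48 h of PE, with SR9009 on the left and vehicle on the right of each panel. Rgs2 and its nearest genes are highest at 4 h in both arms, and Rgs4, Rgs5 and theirs are highest in vehicle cells at 48 h.

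The family holds further genes. Of a list of 24 other RGS and RGS-associated genes, 20 were in the table and 9 had a mean of at least 1 FPKM. Of these 9, Rgs6, Akap10, Snx13 and Snx14 encode a protein with an RGS domain, while Rgs7bp, Gpsm1, Gpsm2, Ric8a and Ric8b encode proteins that bind RGS proteins or Gα subunits. With Rgs7, Rgs6 belongs to the subfamily that pairs with the Gβ protein of Gnb5 and acts on Gi and Go, and in the heart it limits muscarinic slowing of the beat. It had 9.50, 7.58 and 14.7 FPKM at 0, 4 and 48 h with SR9009 and 16.1, 14.8 and 5.04 FPKM with vehicle. The order of the arms was thus opposite at 48 h to that at 0 and 4 h. In the vehicle arm the 48 h against 0 h difference was -1.50 (range -1.96 to -1.06), and at 48 h SR9009 cells were above vehicle cells by 1.38 (range 0.93 to 1.83). The difference of the PE differences was 2.08 (range 1.22 to 2.95), against -1.14 for Rgs4.

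Rgs7bp, which anchors these subfamily members at the membrane, had 5.62, 3.82 and 4.15 FPKM at 0, 4 and 48 h with SR9009 and 6.93, 4.21 and 11.6 FPKM with vehicle. Its direction at 48 h was that of Rgs4: SR9009 cells were below vehicle cells by -1.29 (range -1.87 to -0.75). Gnb5 had 9.48, 15.2 and 14.3 FPKM with SR9009 and 15.0, 18.1 and 14.2 FPKM with vehicle. It met the rule in none of the comparisons. Among the 9 RGS and RGS-associated genes, the counts at 48 h, SR9009 against vehicle, were 1 higher (Rgs6) and 1 lower (Rgs7bp), against 6.89% of all genes in either direction.

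**Figure D4:**
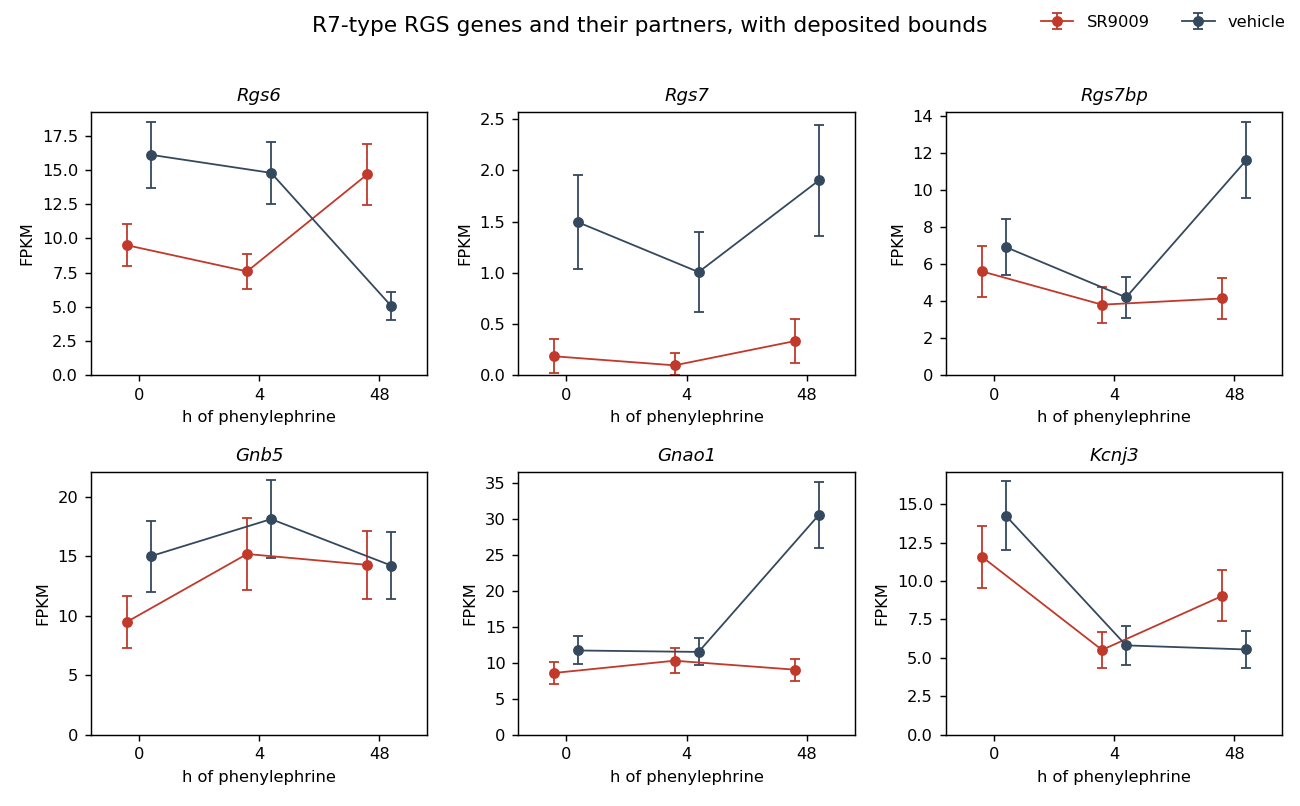
FPKM of Rgs6, Rgs7, Rgs7bp, Gnb5, Gnao1 and Kcnj3 at 0, 4 and 48 h of PE (evenly spaced) in SR9009 cells (red) and vehicle cells (blue); points are the authors' group values over 3 libraries and bars the deposited bounds. At 48 h Rgs6 is at 14.7 FPKM with SR9009 and 5.04 FPKM with vehicle, and Rgs7bp and Gnao1 have the opposite order.

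Of 10 genes of Gα subunits, on which the members act, 1 met the rule in any comparison, Gnao1, which encodes Gαo. It was counted at 48 h against 0 h with vehicle, where 8.82% of all genes were, and at 48 h between the arms, where 6.89% were. It had 8.60, 10.3 and 9.05 FPKM at 0, 4 and 48 h with SR9009 and 11.7, 11.5 and 30.6 FPKM with vehicle. At 48 h SR9009 cells were below vehicle cells by -1.65 (range -2.09 to -1.22). Gnaq, the target of Rgs2, had 18.3, 16.9 and 15.6 FPKM with SR9009 and 20.4, 17.7 and 14.2 FPKM with vehicle, and its close relative Gna11 was between 31.0 and 35.6 FPKM in all 6 groups. Of 12 genes of Gβ and Gγ subunits, 2 met the rule in any comparison. Gnb3 was lower at 48 h than at 0 h with SR9009, at -1.38, and lower than at 4 h in both arms, at -1.59 with SR9009 and -1.39 with vehicle. Gngt2 was lower at 48 h than at 0 h with vehicle, at -1.28, and its difference of the PE differences at 48 h was 1.86. Each of these comparisons counted 1 of the 12. Of all genes, 2.42% met the rule at 48 h against 0 h with SR9009 and 8.82% with vehicle. At 48 h against 4 h the shares were 4.49% with SR9009 and 6.22% with vehicle, and for the difference of differences 9.05%. None of the 7 receptor kinases and arrestins counted, which also switch receptors off, met the rule in any of the comparisons. Of all genes, 0.423% to 9.05% met it, depending on the comparison, so none of 7 is no result about this class. Of 14 Gi and Gs effectors, 2 were lower at 48 h than at 0 h in the vehicle arm, against 3.96% of all genes lower: the adenylyl cyclase Adcy5 at -1.24 and Kcnj3, a subunit of the potassium channel that Gi-coupled receptors open, at -1.22. Pde4b, a phosphodiesterase that breaks down cAMP, was higher at 4 h than at 0 h in both arms, at 1.29 with SR9009 and 1.42 with vehicle, and higher at 48 h than at 0 h with SR9009, at 1.68. Among the Gq effectors, the channel gene Trpc6 was lower in that comparison, at -1.17.

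Of 15 Gq-coupled receptors counted, 1 was higher and 4 lower at 4 h than at 0 h with SR9009, against 4.48% of all genes in either direction, and 1 higher and 3 lower with vehicle, against 5.08%. At 48 h against 0 h the SR9009 arm had none of 15, against 2.42%, and the vehicle arm 2 higher and 4 lower, against 8.82%. The α1-adrenergic receptor Adra1b was at -2.36 and Adra1d at -2.06 in the vehicle arm at 48 h against 0 h, and the bradykinin receptor Bdkrb2 at 4.26. At 0 h, before PE, Adra1d had 10.8 FPKM with SR9009 and 36.3 FPKM with vehicle. The level of this receptor of PE thus already differed when PE was added. Adra1b had 23.3 FPKM with SR9009 and 39.5 FPKM with vehicle at 0 h. Its bounds did not overlap (20.7 to 25.9 FPKM with SR9009, 33.9 to 45.2 FPKM with vehicle), but the difference was under 2-fold and did not meet the rule. Adra1a had 9.86 FPKM with SR9009 and 12.6 FPKM with vehicle, with overlapping bounds. With vehicle at 48 h Adra1a stood higher than at 0 h, at 19.9 FPKM, also short of the rule. Of 7 Gi and Gs-coupled receptors, 1 was higher (S1pr1, 2.62) and 2 lower (Gpr22, -2.66; Adrb1, -1.32) at 48 h against 0 h with vehicle, and none with SR9009, in the comparisons whose shares of all genes are 8.82% and 2.42%. Of 6 genes of cGMP signalling, which regulates Rgs2 protein through the kinase of Prkg1, 1 met the rule in any comparison. Gucy1b3 was lower at 4 h than at 0 h with SR9009, at -1.21, where 4.48% of all genes met the rule in either direction.

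The hypertrophy genes show the setting of these values. Of 5 with a value at 48 h, 3 were higher than at 0 h in the SR9009 arm, against 1.26% of all genes, and all 5 in the vehicle arm, against 4.87%. All 5 were lower with SR9009 than with vehicle at 48 h, against 4.55%. Myh7, the other gene of the list, was not counted at 48 h. At 0 h Myh7 was higher with SR9009, at 620 FPKM against 272 FPKM with vehicle (1.19), where 1.07% of all genes met the rule. Nppa, the atrial natriuretic peptide, was at 3.26 at 48 h against 0 h with SR9009 and at 6.69 with vehicle.

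The cultures carried cardiomyocyte markers at high levels and other cells besides. Over 8 cardiomyocyte genes with a value in all groups, the summed FPKM was 9691, 15008 and 18766 at 0, 4 and 48 h with SR9009 and 13410, 18565 and 17623 with vehicle. Over 10 fibroblast genes, of which Col1a2 is listed at 0 in all groups, it was 939 to 1851 with SR9009 and 1224 to 2098 with vehicle. The 8 endothelial genes summed to 14.1 to 22.5 FPKM with SR9009 and 13.0 to 22.1 FPKM with vehicle, and 9 macrophage and leukocyte genes to 13.9 to 20.6 FPKM with SR9009 and 21.0 to 45.9 FPKM with vehicle; none of these was listed at 0.

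Markers of smooth muscle and pericytes moved with Rgs5 and Rgs4 in part, at 48 h. Their 10 genes, none listed at 0, summed to 1995, 1805 and 2186 FPKM at 0, 4 and 48 h with SR9009 and 2223, 2793 and 4767 FPKM with vehicle. Des, which cardiomyocytes also make, carried much of these sums, at 638, 827 and 1281 FPKM with SR9009 and 712, 1215 and 2706 FPKM with vehicle. The other 9 genes summed to 1358, 978 and 905 FPKM with SR9009, lowest at 48 h, and to 1512, 1578 and 2062 FPKM with vehicle, highest at 48 h. At 48 h, SR9009 against vehicle, 4 of 10 were lower (Cnn1, Acta2, Cspg4 and Des) and none higher, against 4.55% of all genes lower. In neonatal cells Acta2 too is made by cardiomyocytes. Pdgfrb, a defining pericyte receptor, was at 36.8 FPKM with SR9009 and 37.7 FPKM with vehicle at 48 h, and Kcnj8 at 2.15 FPKM with SR9009 and 2.73 FPKM with vehicle. In the vehicle arm at 48 h against 0 h, where Rgs5 was higher, Cnn1, Cspg4, Des and Acta2 were higher and Notch3 was lower, at -1.59, while 7 of 9 fibroblast genes were lower; of all genes, 4.87% were higher and 3.96% lower. At 4 h against 0 h with vehicle, Cspg4 (1.82) and Acta2 (1.13) were higher, with Rgs4 at -0.64 and Rgs5 at -0.18. At 4 h, SR9009 against vehicle, Cnn1 (-1.43) and Acta2 (-1.16) were lower, with Rgs4 at -0.69 and Rgs5 at 0.13. Of all genes, 5.08% and 1.55% met the rule in these comparisons. The part of smooth muscle cells and pericytes in the Rgs5 and Rgs4 values was not tested.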

How the data were processed

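Poly(A) RNA of 18 libraries was sequenced with a stranded kit, per the labels' protocols. The submitters' processing notes name FastQC, Trim Galore, TopHat, Cuffdiff and the build rn6, without versions. The deposited table holds FPKM per gene and group, for which the authors combined 3 libraries, with lower and upper bounds and a status; it has no values per library, so no test was possible, and depth per library is unknown. Summed FPKM was 609018 to 710198 per group.

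From these values, differences of log2(FPKM + 1) were computed with Python 3.11.15, numpy 2.4.6 and pandas 2.3.3 for 9 pairs of groups and 2 differences of differences; figures used matplotlib 3.10.9. Only the 10545 genes averaging 1 FPKM or more were kept. The 31 values with status HIDATA were treated as missing, and the 172 values outside their own bounds were not counted. Locus starts were read as counted from 0: lengths then equal RefSeq's for 2074 genes, against 277 otherwise. The calculation was checked on simulated data.

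All members were named, other RGS genes at a mean of 1 FPKM or more, genes of the pathway lists that met the size rule (at most 4 per list and comparison, largest first), and the 3 nearest profiles of each counted member. The members and all lists were chosen with earlier results of these data known. Not every gene of the pathway lists is reported here. Samples were grouped by their labels for pretreatment and time.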

Additional observations from a re-analysis of the deposited data

How the results depend on the processing

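The 6 alternatives run were a pseudocount of 0.1, groups scaled to equal sums of FPKM, quantile normalization, median centring, no filter on low values, and the 2-fold limit without the bounds. Of 66 counts of members under them, 63 equalled the main count, and 3 did not, all at 48 h of PE against 0 h in the vehicle arm, where the main count is 1 (Rgs5). Scaling to equal sums gave 0, and quantile normalization and the 2-fold limit without bounds each gave 2, Rgs5 and Rgs16 (Rgs16 at 1.16 and 1.03). Of 594 values of single members, 591 kept their side of the rule and none that met it changed sign. Rgs4 at 48 h, SR9009 against vehicle, stayed between -2.02 and -1.68. Scaling to equal sums moved the median of all genes at 48 h against 0 h in the vehicle arm to -0.19, against 0.01, and the counted genes to 341 higher and 666 lower, against 507 and 412. At 4 h against 0 h it moved the median to -0.17, against -0.06, with SR9009 and to -0.20, against -0.02, with vehicle. Leaving out each library was not run, since the table holds 1 value per group. No paired analysis was possible because the columns carry no replicate numbers. The labels do not say whether the 3 libraries of a group came from separate cultures, and wide bounds limit Rgs16 and Rgs14.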

Other observations

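Rgs7, of the same subfamily as Rgs6, had a mean under 1 FPKM and was picked out after its values were seen. It had 0.185, 0.0965 and 0.334 FPKM at 0, 4 and 48 h with SR9009 and 1.49, 1.01 and 1.90 FPKM with vehicle. The SR9009 against vehicle difference of log2(FPKM + 1) was -1.07 at 0 h (range -1.54 to -0.59), -0.87 at 4 h (range -1.26 to -0.41) and -1.12 at 48 h (range -1.62 to -0.61), so the bounds of the arms did not overlap at any of the times. Its PE difference at 48 h with SR9009 minus that with vehicle was -0.05 (range -1.03 to 0.93). Rgs6, Rgs7 and Rgs7bp, whose proteins form complexes with that of Gnb5, thus had 3 different profiles over the groups: Rgs7 was lower with SR9009 at each time, Rgs7bp met the rule between the arms at 48 h only, and Rgs6 was higher with SR9009 at 48 h and lower, under 2-fold, at 0 and 4 h.

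Rgs1 and Rgs18, known from blood cells, averaged 0.411 and 0.689 FPKM over the groups.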
